A study of Mus musculus with 4 samples.

Results

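Pcbp1 ChIP-seq peaks at places where the ends of neighbouring genes adjoin were examined in primed epiblast-like cells (EpiLC) and naive mouse embryonic stem cells (Naive). The peaks were chosen by position: the summit, the base of highest signal within a peak, had to lie within 1 kb of an annotated end of at least 2 protein-coding genes. Of 15626 peaks, 1064 met this rule, 198 of 3494 in the EpiLC list (5.67%) and 866 of 12132 in the Naive list (7.14%). Another 885 EpiLC and 2977 Naive peaks lay at the end of a single protein-coding gene, and 2411 EpiLC and 8289 Naive peaks lay at no such end. Merged over both lists, the peaks at adjoining ends made 814 loci, of which 158 had one in both lists, 32 in the EpiLC list alone and 624 in the Naive list alone. Alone means here only that the other list had no peak meeting the rule. Of 45 EpiLC peaks at adjoining ends that overlapped no such Naive peak, 8 overlapped another Naive peak and 15 had a Naive summit within 1 kb. Over all peaks, 48.3% in EpiLC and 13.7% in Naive overlapped a peak of the other list.

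All cells were E14 Tg2a, a widely used mouse embryonic stem cell line, and were fixed in formaldehyde before precipitation with an antibody to Pcbp1. EpiLC were made from the naive cells by 48 hours on fibronectin in N2B27 medium with 12 ng/ml bFGF, 20 ng/ml Activin A and 1% KOSR. Naive cells had been adapted for 3 passages to serum-free N2B27 medium with LIF, the MEK inhibitor PD0325901 (1 uM) and the GSK3β inhibitor CHIR99021 (3 uM). Each condition had 1 Pcbp1 library and 1 input library, both from the same line, so there is no replicate error. Every interval below covers counting error only, no test between conditions was possible, and a peak missing from a list does not show that Pcbp1 was absent there. The peak lists hold no expression values, so the labelled cell states could not be checked by their markers.

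Pcbp1 (hnRNP E1) is a KH-domain protein that binds C-rich single-stranded RNA and DNA, and is known as a regulator of splicing, mRNA stability and translation and as an iron chaperone. Genes can adjoin head to head, with their starts together and their transcription running apart, tail to tail, with their 3' ends together, or in the same direction, the end of one gene before the start of the next. Head-to-head genes often share a bidirectional promoter, typically within a CpG island and without a TATA box, and housekeeping genes for DNA repair, mitochondria and protein synthesis are frequent among them.

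Stretches around the summit are printed for 6 loci as examples. A chaperonin pair and an acetyltransferase pair have strong peaks in both lists. Another pair has a peak in the EpiLC list and no overlapping Naive peak. The next has the highest Naive fold among those without an EpiLC peak, and the next a much lower EpiLC than Naive fold. The last is a proteasome pair, printed for its repeated Nrf1 letters. The stretches are read 5' to 3' on the strand of the gene named first, from the RefSeq promoter windows of GRCm38.p6. They hold up to 75 bases on either side of the summit within that window. Capitals mark the letters of the motifs listed further on.
Hspe1, facing Hspd1 (EpiLC summit), chr1:55087967-55088117, plus strand: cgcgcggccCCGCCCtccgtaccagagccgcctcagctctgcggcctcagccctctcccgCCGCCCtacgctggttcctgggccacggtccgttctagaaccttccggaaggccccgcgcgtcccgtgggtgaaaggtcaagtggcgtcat
Atp6v1a, facing Naa50 (EpiLC summit), chr16:44139210-44139312, minus strand: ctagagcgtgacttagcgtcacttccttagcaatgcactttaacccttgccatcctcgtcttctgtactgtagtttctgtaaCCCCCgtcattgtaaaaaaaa
Eml3, facing Rom1 (EpiLC summit), chr19:8929447-8929597, plus strand: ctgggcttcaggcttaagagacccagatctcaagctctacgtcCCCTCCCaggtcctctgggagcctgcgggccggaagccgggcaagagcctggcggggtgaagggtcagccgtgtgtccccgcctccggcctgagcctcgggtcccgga
Mbtd1, facing Utp18 (Naive summit), chr11:93885921-93886071, plus strand: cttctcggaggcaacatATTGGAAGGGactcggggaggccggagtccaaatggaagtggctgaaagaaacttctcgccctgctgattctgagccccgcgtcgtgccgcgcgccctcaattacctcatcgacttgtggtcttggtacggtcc
Rpl9, facing Lias (Naive summit), chr5:65391495-65391645, minus strand: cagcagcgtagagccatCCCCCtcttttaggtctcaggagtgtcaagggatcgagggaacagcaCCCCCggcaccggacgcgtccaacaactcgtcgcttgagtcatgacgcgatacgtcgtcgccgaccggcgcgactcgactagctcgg
Mrpl32, facing Psma2 (Naive summit), chr13:14613043-14613193, minus strand: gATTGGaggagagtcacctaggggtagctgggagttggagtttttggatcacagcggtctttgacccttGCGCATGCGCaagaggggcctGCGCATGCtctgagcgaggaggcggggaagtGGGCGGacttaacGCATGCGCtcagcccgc
The Hspe1 stretch holds 2 GC boxes on the opposite strand, and C made up 41.7% of its bases. The Atp6v1a and Mbtd1 stretches are less C-rich, at 28.2% and 28.5%. The Mrpl32 stretch carries 4 matches to the Nrf1 letters, counting both strands of one palindromic stretch, around a summit at its base 76. The Naive fold at Mrpl32/Psma2 was 5.6, with no overlapping EpiLC peak. Over all starts, the Nrf1 letters were less frequent at adjoining ends than at single-gene peaks, with the shares given further on.

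The first question was which kinds of adjoining ends carried peaks, and it was put to all 4810 pairs of protein-coding genes with annotated ends at most 2 kb apart, whether or not a peak lay there. Head-to-head pairs had a summit within 1 kb of an end of both genes most often: 111 of 1005 pairs in EpiLC (11.0%, 95% exact binomial interval 9.17 to 13.1) and 496 of 1005 in Naive (49.4%, 46.2 to 52.5). Tail-to-tail pairs seldom did, with 3 of 1049 in EpiLC (0.286%, 0.059 to 0.833) and 13 of 1049 in Naive (1.24%, 0.661 to 2.11). Pairs running in the same direction, start to end, lay between, with 33 of 902 in EpiLC (3.66%, 2.53 to 5.10) and 99 of 902 in Naive (11.0%, 9.01 to 13.2). The order of these 3 classes was the same in both lists, and their intervals did not overlap within a list. Among peaks with a fold of at least 5 the order turned in EpiLC, with a summit at 2 of 1005 head-to-head pairs (0.199%) and 7 of 902 same-direction ones (0.776%). That reversal rests on few pairs. In Naive the order held, at 19.5% and 3.55%. With the Naive list shortened by rank to the number of EpiLC peaks, head-to-head pairs had 11.0% in EpiLC and 15.9% in Naive, and same-direction pairs 3.66% in EpiLC and 3.1% in Naive. Strand was not known for 1681 pairs, of which 51 had a summit in EpiLC (3.03%) and 183 in Naive (10.9%).

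Head-to-head pairs also carried a summit more often than starts with no neighbour. Of 12154 gene starts with no other protein-coding end within 2 kb, 547 had a summit within 1 kb in EpiLC (4.50%, 4.14 to 4.88) and 1918 in Naive (15.8%, 15.1 to 16.4). Of 11936 lone 3' ends, 28 did in EpiLC (0.235%) and 80 in Naive (0.670%). Where only the adjoining ends come into play, the stretch in which a summit counts is no wider for a pair than for a lone start. A gene of a pair counted by either of its ends, however, so at short genes a summit near their other ends counted too. Genes with their own ends at most 2 kb apart were left out of the lone starts, so this extra room exists for pairs only. Starts rich in CpG were looked at separately, a split chosen after seeing the data. With an observed-to-expected CpG ratio of at least 0.6 in the promoter windows, 91 of 706 head-to-head pairs had an EpiLC summit (12.9%, 10.5 to 15.6), against 422 of 5970 lone starts (7.07%, 6.43 to 7.75). For Naive summits the values were 409 of 706 pairs (57.9%, 54.2 to 61.6) and 1563 of 5970 lone starts (26.2%, 25.1 to 27.3). Below that ratio, 4 of 99 pairs (4.04%) and 125 of 6184 lone starts (2.02%) had an EpiLC summit, and 14 of 99 pairs (14.1%) and 355 of 6184 lone starts (5.74%) a Naive one. The lone starts of both classes make up all 12154, but the pairs do not make up all 1005 head-to-head pairs. Pairs in neither class are left out of this split, and some of them had a summit. CpG-rich pairs and starts had summits more often than CpG-poor ones in both lists, and within the CpG-rich class the shares of pairs lay above those of lone starts with no overlap of the intervals. Expression of the genes was not analysed here, and its part in these shares was not tested.

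**Figure D1:**
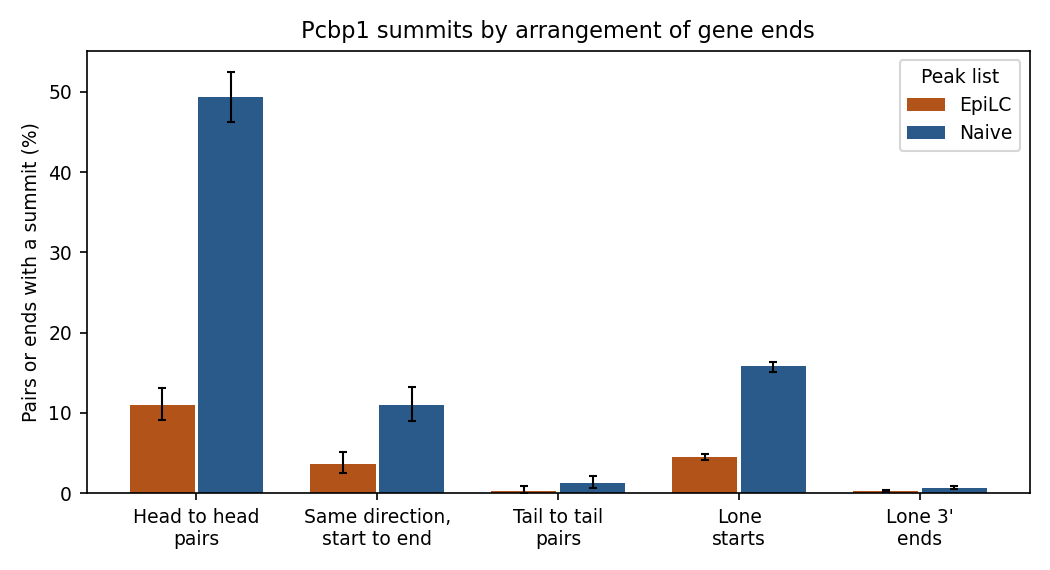
Percentage of gene pairs, or of lone gene starts and lone 3' ends, with a summit within 1 kb, by arrangement; EpiLC bars stand left of Naive bars and error bars are 95% exact binomial intervals. Head-to-head pairs reached 11.0% in EpiLC and 49.4% in Naive, and tail-to-tail pairs 0.286% and 1.24%.

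Among head-to-head pairs the share with a summit was similar for starts up to 600 bp apart. An EpiLC summit was present at 12.2% of 377 pairs with starts up to 100 bp apart, 12.6% of 285 pairs up to 300 bp, 9.52% of 147 pairs up to 600 bp, 14.9% of 87 pairs up to 1000 bp and 1.83% of 109 pairs up to 2000 bp, with intervals that overlap up to 1000 bp. The Naive shares of the same pairs were 56.2%, 58.2%, 51.7%, 36.8% and 9.17%. The rule itself narrows the room for a summit as starts move apart, so the drop in the last class is partly built in. Pairs whose genes do not overlap and pairs whose genes do had similar shares, 11.8% of 645 and 9.72% of 360 in EpiLC and 51.9% and 44.7% in Naive.

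**Figure D2:**
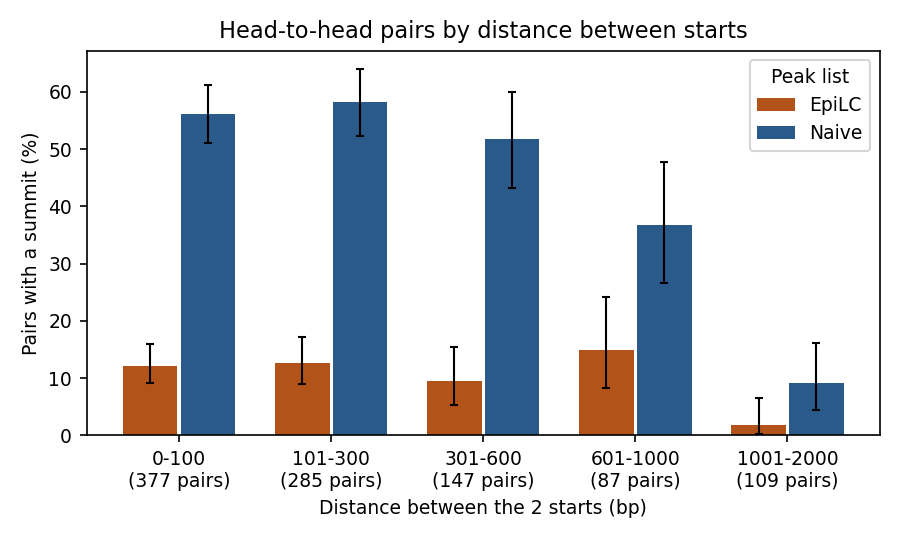
Percentage of head-to-head pairs with a summit within 1 kb of an end of both genes, by the distance between the starts in bp, with EpiLC left of Naive and 95% exact binomial intervals. EpiLC shares lie between 9.52% and 14.9% up to 1000 bp, and Naive shares between 51.7% and 58.2% up to 600 bp.

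Seen from the peaks, head-to-head starts made up most of the adjoining ends. With the strand known, 105 of 149 EpiLC peaks (70.5%) and 531 of 676 Naive peaks (78.6%) had 2 starts as their nearest ends. Same-direction ends held 31 EpiLC (20.8%) and 100 Naive peaks (14.8%), and tail-to-tail ends 2 and 7. Summits sat close to a start but mostly not in the space between the genes. The median distance to the nearer end was 184 bp in EpiLC and 166 bp in Naive, and to the second end 401 and 334.5 bp. The summit lay between both ends in 62 of 198 EpiLC peaks (31.3%) and 233 of 866 Naive peaks (26.9%). At head-to-head pairs with non-overlapping genes, 15 of 70 EpiLC summits (21.4%) and 64 of 355 Naive summits (18%) lay upstream of both annotated starts. The others lay downstream of one of these starts. The share differed with the distance between the starts: with starts up to 100 bp apart it was 2 of 38 in EpiLC and 7 of 176 in Naive, and with starts over 300 and up to 600 bp apart it was 5 of 5 and 17 of 46. With starts over 600 and up to 1000 bp apart it was 2 of 4 in EpiLC and 7 of 11 in Naive. At single starts 272 of 640 EpiLC summits (42.5%) and 888 of 2306 Naive summits (38.5%) lay upstream. These shares are not like for like with those of pairs. The space upstream of both starts is only the gap between them, while upstream of a single start it reaches 1 kb. A lower share at pairs is thus partly built in. Fragments were around 500 bp long, so summit positions finer than the gap between close starts are uncertain. Starts here are annotated gene ends, and the starts of the promoter windows can differ from them. In the Tepsin window the Naive summit of Tepsin/Ndufaf8 lay at base 76 of the stretch around it, upstream of the window's start at base 100. By gene ends that summit was 125 bp from the nearer end and not between both. How far the shares depend on the choice of start was not tested.

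**Figure D3:**
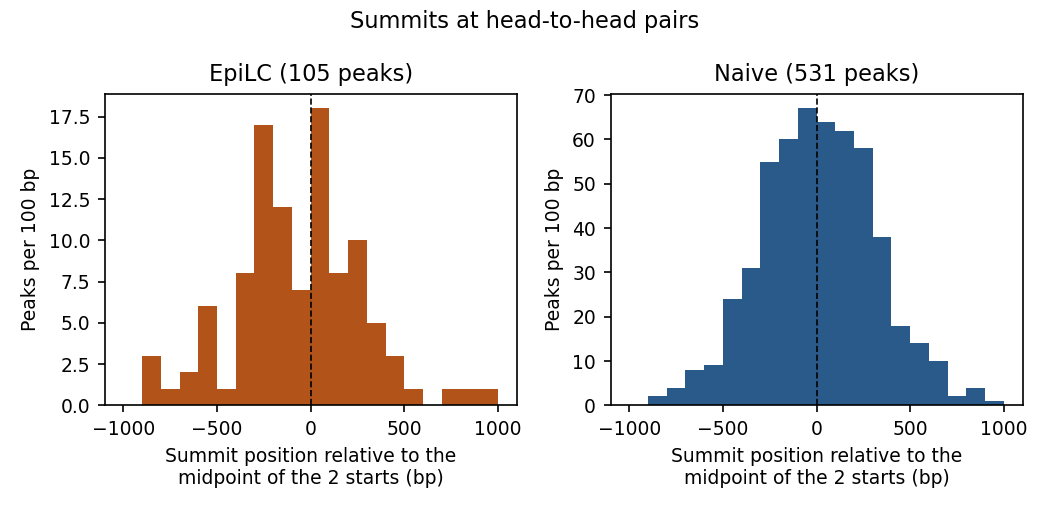
Position of the summit relative to the midpoint of the 2 starts, in bp, for head-to-head peaks in EpiLC (left, 105 peaks) and Naive (right, 531 peaks), in bins of 100 bp. The rule keeps every summit near both genes, so positions around the midpoint are built in. Median distances from the midpoint, on either side, were 245 bp in EpiLC and 210 bp in Naive.

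The authors' fold enrichment, the pileup at the summit over the caller's local background, was moderate at adjoining ends. Its median was 3.09 in EpiLC (quartiles 2.72 and 3.63, range 1.93 to 11.3) and 4.51 in Naive (3.97 and 5.43, 2.52 to 15.4). At single gene ends the medians were 3.41 in EpiLC and 4.40 in Naive. A fold of at least 5 was reached by 12 of 198 EpiLC peaks (6.06%, 3.17 to 10.3), beside 12.4% of all EpiLC peaks, and by 298 of 866 Naive peaks (34.4%, 31.2 to 37.7), beside 32.8% of all Naive peaks. Of those 12 EpiLC peaks 2 were head to head, 5 same direction start to end and 1 same direction with like ends, with 4 of unknown strand, whereas 191 of the 298 Naive peaks were head to head. The EpiLC background was higher at these places: the local background was 2.04 times the genome-wide one in EpiLC and 1.13 times in Naive at the median peak, against 1.66 and 1.11 over all peaks. The genome-wide background itself was 7.43 in EpiLC and 4.0 in Naive.

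Peaks at adjoining ends in EpiLC were mostly found in Naive too. Of 198, 161 overlapped a Naive peak (81.3%, 75.2 to 86.5), beside 48.3% of all EpiLC peaks, 63.4% of those at a single gene end (60.1 to 66.6) and 40.1% of those at none. The other way round, 159 of 866 Naive peaks overlapped an EpiLC peak (18.4%, 15.8 to 21.1), beside 13.7% of all Naive peaks and 18.5% of those at a single gene end. The Naive peaks found in EpiLC were the stronger ones, since in 4 equal groups by Naive fold 6.91%, 8.33%, 17.6% and 40.6% overlapped an EpiLC peak, from the lowest folds to the highest. The same grouping by EpiLC fold showed no gradient, with 86.0%, 75.5%, 77.6% and 86.0%. When the Naive list was shortened by rank to the number of EpiLC peaks, the EpiLC share fell to 50%, so this overlap depends on the length of the Naive list.

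At the 153 places where members of both lists overlapped, the summits lay a median of 53 bp apart and 75 lay within 50 bp, beside a median of 48 bp and 864 of 1689 over all shared peaks. The EpiLC fold was above the Naive fold at 8 of the 153 (5.23%), against 14.4% of all shared peaks. The median EpiLC/Naive ratio was 0.555 (quartiles 0.445 and 0.725, range 0.177 to 1.37), against 0.670 over all 1689 shared peaks and 0.626 at single gene ends. Taking the pileup over the genome-wide background in place of the local one raised the median to 0.898, beside 0.907 over all shared peaks, and 56 of 153 places then lay above 1, beside 610 of 1689 over all shared peaks. The local background at these places was a median 2.07 times the genome-wide value in EpiLC and 1.15 times in Naive. The median ratio is therefore given both by folds and by pileups, and the reason for the higher EpiLC background was not tested. Where only folds are given for a locus, a lower EpiLC fold does not by itself mean a lower EpiLC pileup. The folds of both lists tracked each other little, with a Spearman's rho of 0.192 over 153 loci, which share 2 libraries.

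**Figure D4:**
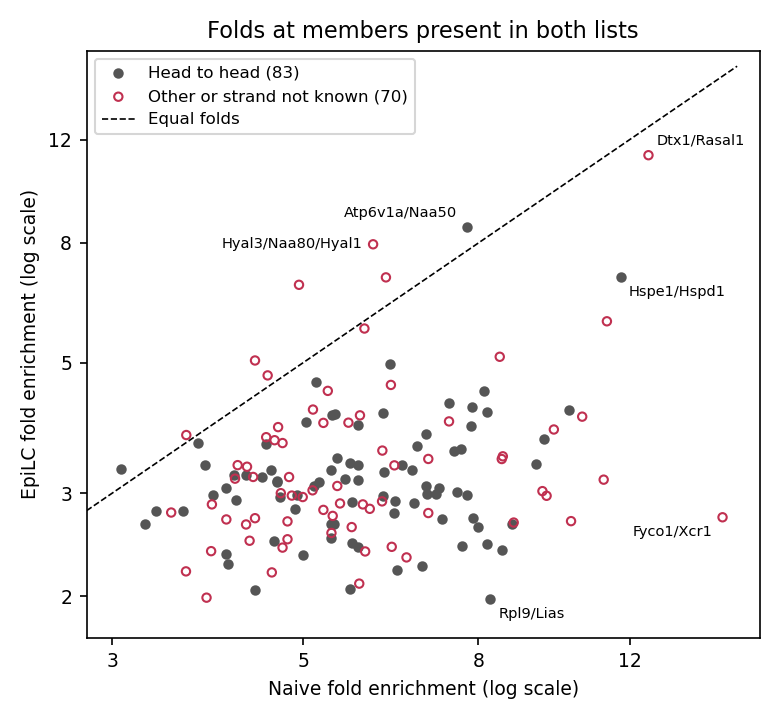
EpiLC fold against Naive fold, both on log axes, at 153 loci with a peak in both lists; filled points are head to head, open points other arrangements or unknown strand, and the dashed line marks equal folds. The points above the line are the 8 loci with a ratio over 1, up to 1.37.

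The strongest loci in both lists, ranked by the lower fold, were led by Dtx1/Rasal1, a Notch-pathway E3 ligase and a Ras GTPase-activating protein, with folds of 11.3 in EpiLC (9.46 to 13.4) and 12.6 in Naive (10.0 to 15.7) at chromosome 5, 120680218 to 120680775 (mm10, EpiLC peak). Atp6v1a/Naa50, the catalytic subunit of the vacuolar ATPase and an N-terminal acetyltransferase, had 8.51 in EpiLC (6.91 to 10.4) and 7.76 in Naive (5.80 to 10.2), on chromosome 16 at 44139023 to 44139592. Hspe1/Hspd1, the mitochondrial chaperonins Hsp10 and Hsp60, whose starts are 95 bp apart, had 7.0 in EpiLC (5.70 to 8.50) and 11.7 in Naive (9.08 to 14.9), on chromosome 1 at 55087926 to 55088181. Its intervals do not overlap, and its summits lay 3 bp apart in the 2 libraries. Ppox/Usp21, a haem-synthesis enzyme and a deubiquitinase, had 5.88 in EpiLC (4.85 to 7.07) and 11.3 in Naive (8.70 to 14.4). By pileup over the genome-wide background the EpiLC/Naive ratios of these loci were 0.919, 1.03, 0.821 and 0.965, in the order named. The other 6 of the 10 had EpiLC folds of 4.98 to 7.96: Syne4/Alkbh6, Hyal3/Naa80/Hyal1, Ddah2/Clic1, Slc26a6/Celsr3, Stap2/Mpnd and Tsga10ip/Sart1.

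**Figure D5:**
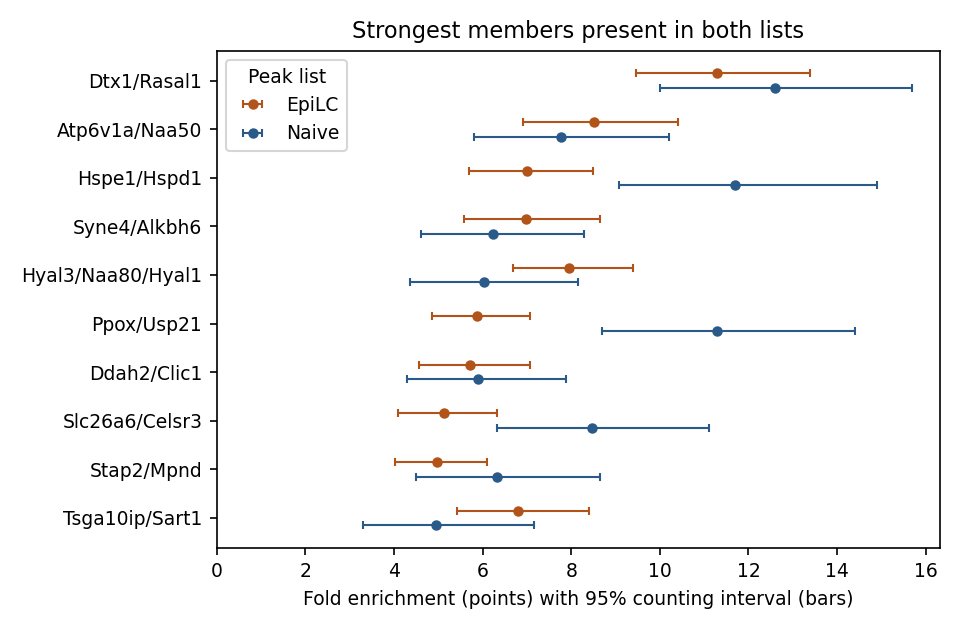
Fold enrichment at the 10 strongest loci in both lists, EpiLC above Naive at each gene group, with 95% Poisson intervals from the recovered pileup. EpiLC and Naive intervals overlap at Dtx1/Rasal1 and Atp6v1a/Naa50, and at Hspe1/Hspd1 the EpiLC value is below the Naive one.

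Of 37 EpiLC members overlapping no Naive peak, the strongest were Arsg/Slc16a6, a lysosomal sulfatase and a transporter (fold 5.39, 4.09 to 6.97) and Mmp25/Bicdl2 (5.13, 3.81 to 6.77). Next came Prrt2/Maz, the second a zinc-finger transcription factor, at 4.2, the head-to-head pair Zic4/Zic1 of zinc-finger factors at 4.15 (2.91 to 5.75), Rpl19/Cacnb1 at 4.05, Arl6ip4/Ogfod2 at 3.93, Tmem63b/Capn11 at 3.82 and Eml3/Rom1 at 3.55. Among 707 Naive members overlapping no EpiLC peak, the highest folds were Mbtd1/Utp18 at 9.59 (7.10 to 12.7), Rpe/Unc80 at 9.34, Wdr92/Pno1 and Nsun2/Srd5a1 at 8.79 each, Xpnpep3/St13 at 8.41, Pcna/Cds2 at 8.20, Ddx5/Cep95 at 8.19 and Bzw2/Ankmy2 at 7.99. Utp18 and Pno1 act in ribosome assembly and Pcna is the sliding clamp of DNA replication. At Ddx5/Cep95 the EpiLC list had a separate peak that did not overlap the Naive one, with a fold of 4.35 (3.22 to 5.75). At the other 7 pairs the EpiLC list had no qualifying peak, and the EpiLC level below the caller's threshold is not known.

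The EpiLC/Naive ratio was highest at Tsga10ip/Sart1 (1.37), Hyal3/Naa80/Hyal1 (1.32), 4930503L19Rik/Stard6 (1.15), Syne4/Alkbh6 (1.12) and Atp6v1a/Naa50 (1.10), and all of their EpiLC and Naive intervals overlap. Their pileup ratios, over the genome-wide background, were 1.7, 1.83, 1.18, 0.972 and 1.03 in the same order, and on that measure Arhgap26/Spry4 (1.64), Dstn/Bfsp1 (1.56) and Sypl2/Atxn7l2 (1.49) ranked among the 5 highest. The ratio of folds was lowest at Fyco1/Xcr1 (0.177), with a fold of 2.73 in EpiLC (2.18 to 3.38) and 15.4 in Naive (12.2 to 19.2), and an EpiLC local background of 29.4. The stretch around its EpiLC summit is a short sequence repeated in tandem, and the effect of this repeat on the folds was not tested. The next lowest ratios were at Rpl9/Lias (0.239), Rab5b/Pmel (0.262), Rps18/Vps52 (0.281) and Rps27a/Clhc1 (0.283). The EpiLC local background at the ribosomal protein pairs among them was 18.3 to 22.8, where the genome-wide value was 7.43. By pileup over the genome-wide background the ratios were 0.581, 0.576, 0.705, 0.642 and 0.588, in the order named, and none of these loci was among the 5 lowest, which were Htra2/Aup1 (0.457), Tssk4/Tm9sf1 (0.528), Dido1/Gid8 and Ddx49/Cope (0.539 each) and 2010109A12Rik/Ccni (0.549). Other ribosomal protein pairs had fold ratios above the median, among them Rpl36al/Mgat2 (0.894) and Rps25/Trappc4 (0.811).

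Genes were then read by lists, chosen with earlier results of these data known. Of 21887 protein-coding genes, 1.76% lay at EpiLC members and 7.14% at Naive members, and of the 7048 with a close neighbour 5.46% and 22.2%. Replication-dependent histones, which package newly made DNA, had 22 of 62 genes in EpiLC (35.5%) and 35 of 62 in Naive (56.5%). The histone loci with the highest Naive folds were H4c18/H2ac24, at 2.43 in EpiLC and 6.34 in Naive, and H2ac18/H3c14, at 2.39 in EpiLC and 5.91 in Naive. By pileup over the genome-wide background their EpiLC/Naive ratios were 1.05 and 1.08. Cytosolic ribosomal proteins had 15 of 86 in EpiLC and 20 of 86 in Naive, mitochondrial ribosomal proteins 5 and 27 of 78, and respiratory chain genes 7 and 30 of 106. Aminoacyl-tRNA synthetases had 3 and 11 of 39, proteasome and chaperonin subunits 4 and 11 of 50, and RNA polymerase II and Mediator subunits 3 and 9 of 60. DNA replication and repair genes had 0 of 92 in EpiLC and 26 of 92 in Naive, of which 59 have a close neighbour. Genes with such roles outside the list did have EpiLC members, among them Rad17 (4.48), Polh (3.22), Slx1b (3.64) and H2ax (3.65), which were picked out after their values were seen. Pcna/Cds2 (8.20), Palb2/Dctn5 (6.63), Fanci/Rlbp1 (6.52) and Nbr1/Brca1 (6.10) led that list in Naive, and Palb2, Fanci and Brca1 act in the repair of DNA breaks and crosslinks. The ribosomal loci with the highest Naive folds were Rps27a/Clhc1 (3.16 in EpiLC and 11.2 in Naive), Rps18/Vps52 (2.40 in EpiLC and 8.53 in Naive), Rpl9/Lias (1.98 in EpiLC and 8.26 in Naive) and Rpl12/Lrsam1 (2.98 in EpiLC and 7.14 in Naive). The mitochondrial ones were led by Mrps5/Zfp661 (3.56 in EpiLC and 7.63 in Naive). The respiratory ones were led by Ndufs3/Kbtbd4 (2.63 in EpiLC and 7.99 in Naive) and Cpsf2/Ndufb1 (4.2 in EpiLC and 7.87 in Naive). By pileup over the genome-wide background the EpiLC/Naive ratios were 0.79 at Mrps5/Zfp661, 0.61 at Ndufs3/Kbtbd4, 0.74 at Cpsf2/Ndufb1 and 0.60 at Rpl12/Lrsam1. A gene without a close neighbour cannot be counted, and no list was tested.

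The lists on amino acids, mTORC1 and pluripotency were read against the same shares of all genes. Of 72 amino acid synthesis and degradation genes, 2 in EpiLC (2.78%) and 8 in Naive (11.1%) lay at a member. Among them was Psph, which makes serine, paired with the chaperonin gene Cct6a at folds of 2.35 in EpiLC and 5.0 in Naive. The EpiLC/Naive ratio of this pair by pileup over the genome-wide background was 1.03. Of 44 mTORC1 and amino acid sensing genes, 0 in EpiLC and 7 in Naive (15.9%) lay at a member. The Naive ones were led by Akt1s1/Tbc1d17 (5.02), Nprl2/Cyb561d2 (4.57) and Nthl1/Tsc2 (4.49). Of the 18 mTORC1 genes with a close neighbour these 7 are 38.9%, beside 22.2% of all genes with one. At Akt1s1/Tbc1d17 an EpiLC peak of fold 2.57 overlapped the Naive one, but its summit was not within 1 kb of both genes. Naive pluripotency genes had 0 of 23 in both lists, but only 2 of them have a close neighbour. Primed pluripotency genes had 1 of 29 in each list, Spry4 beside Arhgap26, at 4.76 in EpiLC and 4.55 in Naive. Zinc finger Zfp genes had 5 and 19 of 394. Of the Zfp genes with a close neighbour, 6.33% in EpiLC and 24.1% in Naive lay at a member. For amino acid genes with one the shares were 7.14% and 28.6%, beside 5.46% and 22.2% of all genes with one.

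Well-known neighbouring pairs were also looked up by name. They hold 40 genes, of which 39 have a close neighbour and 31 lie in a head-to-head pair. Of those with a close neighbour, 25.6% in EpiLC and 61.5% in Naive lay at a member, beside 5.46% and 22.2% of all genes with one. Over all head-to-head pairs, 11.0% had a summit in EpiLC and 49.4% in Naive. Whether the well-known pairs differ from other head-to-head pairs was not tested. EpiLC members lay at Hspd1/Hspe1, Trp53/Wrap53 (2.65), Rps27a/Clhc1 (3.16), Aimp1/Tbck (4.15) and Psph/Cct6a. Naive members lay at 12 pairs, among them Aimp1/Tbck (10.2), Ppat/Paics (7.19), Prkdc/Mcm4 (5.40), Mtrr/Fastkd3 (5.78), Sirt3/Psmd13 (4.60), Fen1/Tmem258 (4.23) and Mrps12/Sars2 (3.21). Neither list had one at Atm/Npat, Col4a1/Col4a2, Surf1/Surf2, Tap1/Psmb9 or Tbp/Psmb1. Tcp1/Acat2 has no annotated ends within 2 kb. The Naive peak that overlaps the Trp53/Wrap53 one (4.48) has its summit beyond 1 kb.

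The loci with 3 or more genes were few, 9 EpiLC and 20 Naive peaks. The strongest were Rad17/Taf9/Ak6, a checkpoint protein, a TFIID subunit and an adenylate kinase, with 4.48 in EpiLC and 8.11 in Naive, Hyal3/Naa80/Hyal1 with 7.96 and 6.03, and Med20/Gm20517/Bysl, Smim27/Topors/Ndufb6 and Ubr7/Gm20604/Gon7 in Naive at 5.87, 5.80 and 5.78. At the 1 kb limit, the last EpiLC members inside had folds of 2.65 and 2.42 (Trp53/Wrap53 and H2ax/Dpagt1), and the first outside 4.0 and 2.76 (Rmi1/Hnrnpk and Gnl1/Prr3). In Naive those inside had 4.40 and 5.2 (Cfap298/Synj1 and Gm20783/LOC108167694), and those outside 6.27 and 6.19 (Alg3/Eef1akmt4/Eef1akmt4-ece2 and Rmi1/Hnrnpk).

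The promoter windows of these genes, 250 bases before to 50 after the start, were searched on both strands for 12 motifs. A match is only a description. Only 65 of 198 EpiLC summits at adjoining ends (32.8%) and 327 of 866 Naive ones (37.8%) lay in such a window. The shares below thus describe the starts, and for most peaks not the sequence at the summit. The starts at EpiLC members had a median GC content of 61.0% and a CpG ratio of 0.833, those at Naive members 60.7% and 0.844, against 56.3% and 0.577 over all 17492 promoters. A run of 5 C (CCCCC), the kind of letters Pcbp1 is known to prefer, was in 57.0% of 279 EpiLC member starts and 56.8% of 1197 Naive ones, against 53.6% of all promoters and 70.2% and 61.7% of the starts at single-gene peaks. CCCTCCC was in 24.7% and 20.7%, against 24.0% of all. The Ets letters CCGGAAGT were in 11.5% and 14.4%, against 5.28% of all, the Yy1 letters AAGATGGCG in 5.02% and 5.35% against 1.92%, and the GC box GGGCGG in 59.9% and 62.2% against 46.3%. At the starts of single-gene peaks the Ets letters were in 7.97% in EpiLC and 11.5% in Naive, the Yy1 letters in 3.09% and 4.37%, and the GC box in 64.1% and 63.8%, with a median GC content of 60.3% and 60.0%. The GC box was thus no more frequent at adjoining ends than at single-gene starts. GCATGCGC for Nrf1 was in 2.87% and 6.18% against 3.61%, and the TATA letters TATAAA in 7.17% and 6.02% against 13.3%, where single-gene starts had 6.02% and 7.76% for Nrf1 and 8.94% and 6.77% for TATA. The C-rich letters CCCTTCC were in 14.0% and 14.6%, against 12.9% of all. The Zfp143 letters ACTACAATT were in 0 of 279 EpiLC member starts, an upper limit of 1.31%, and in 1.42% of Naive ones, against 0.543% of all. The CCAAT box (letters CCAAT) was in 31.2% and 41.0%, against 39.2% of all. The cAMP-response letters TGACGTCA were in 3.58% and 5.18%, against 2.33% of all. The E-box letters CACGTG were in 10.8% and 9.94%, against 7.91% of all. At single-gene starts CCCTCCC was in 34.8% in EpiLC and 25.5% in Naive, CCCTTCC in 18.4% and 13.5%, and the Zfp143 letters in 0.488% and 1.5%. The CCAAT box was there in 37.6% and 41.8%, the cAMP-response letters in 5.04% and 4.09%, and the E-box letters in 8.94% and 11.5%. Of these motifs, only the E-box in EpiLC and CCCTTCC and the cAMP-response letters in Naive were more frequent at adjoining ends. A C run and a GC box can overlap, as their letters share G or C stretches. Head-to-head starts with a member held the C run in 57.5%, those without one in 63.6%, and head-to-head folds differed little with it: 3.05 with and 3.24 without in EpiLC, 4.53 and 4.71 in Naive.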

How the data were processed

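Pcbp1 ChIP and input libraries of EpiLC and Naive cells (1 each) are described by 1 deposited peak list per condition. Per the submitters' processing notes, fastp, Bowtie2, Picard and MACS2 and the build GRCm38 (mm10) were used, with no versions or roles. The caller's control and the read totals are not stated in the labels. Each fold the authors deposited is a ratio of signal to background at the summit. Their deposited significance columns hold −log10 of the p-value and, separately, −log10 of the q-value, whose lowest entry was 2.02 in both lists. The pileup and background behind each fold were solved from the fold and −log10 p, with an agreement within 0.001 for 100% of peaks, and gave 95% Poisson intervals. Shares carry 95% exact binomial intervals.

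Gene ends came from RefSeq (GRCm38.p6, 21887 protein-coding genes), and strand from its promoter table for 17492 genes (79.9%), with the strand of the others not used here. Peaks overlapped if they shared at least 1 bp. Members and gene lists were chosen with earlier results of these data known, and the members by position in both lists. In the mTORC1 list 2 misspelt symbols were corrected after the counts were seen, which left its count of members as it was. Loci named are the 10 with the highest lower fold in both lists, the 8 highest in 1 list alone, the 5 highest and lowest fold ratios, the known pairs (1 of them is not reported here), up to 4 per gene list, the 5 strongest with at least 3 genes, and the 2 nearest either side of 1 kb. Work was done in Python 3.11.15 with scipy 1.17.1, numpy 2.4.6, pandas 2.3.3 and matplotlib 3.10.9. The recovery and overlap code was checked on simulated data. Alternatives tried were the peak threshold, window, overlap, Naive list length, pileup in place of fold, counting loci once and leaving out predicted genes.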

Additional observations from a re-analysis of the deposited data

How the results depend on the processing

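No paired analysis was possible because each condition had 1 ChIP library, and for the same reason no library could be left out. The order of head-to-head and same-direction pairs turned in EpiLC under 1 setting, given at the end, and the order of EpiLC and Naive at same-direction pairs with the shortened Naive list. Requiring a fold of at least 5 left 12 EpiLC and 298 Naive peaks, an overlap of 66.7% of EpiLC and 3.02% of Naive peaks, close pairs with a summit at 0.291% in EpiLC and 6.51% in Naive, a median EpiLC/Naive ratio of 0.932 over 8 loci, and 33.2% of summits between the ends. A −log10 q of at least 5 gave 3.45% of close pairs in EpiLC and 14.2% in Naive. A window of 500 bp left 117 EpiLC peaks with an overlap of 87.2%, 3.42% of close pairs in EpiLC and a ratio of 0.514, and a window of 2 kb gave 20.4% of close pairs in Naive. With the Naive list shortened to the EpiLC number, 50% of EpiLC and 40.6% of Naive members overlapped, 5.3% of close pairs had a Naive summit and the ratio was 0.488. The head-to-head share was then 11.0% in EpiLC and 15.9% in Naive, against 11.0% and 49.4% with the whole list, and the same-direction share 3.66% in EpiLC and 3.1% in Naive, against 3.66% and 11.0%. Pileup over genome-wide background gave a ratio of 0.898. At a fold of at least 5 head-to-head pairs fell to 0.199% in EpiLC (2 pairs), below the 0.776% of same-direction pairs (7 pairs), and to 19.5% in Naive, above their 3.55%. The causes were not tested.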
